A study of Mus musculus with 4 samples.

Results

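Transcripts of myeloid, glial and neuronal cells were measured in RNA of sorted effector CD4 cells, using 47 marker genes among the 23990 gene symbols with FPKM values. The 47 genes comprised 21 markers of microglia and macrophages, 11 of neutrophils, 6 of oligodendrocytes, 4 of astrocytes and 5 of neurons. They were taken by symbol from a marker list for each cell type. FPKM (fragments per kilobase of transcript, scaled by library depth) was summed over the transcripts of each symbol. All 47 genes were found, Adgre1 under its older symbol Emr1, and each had a value above 0 in at least 1 library.

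The study asked how the RNA of CD4 cells that have entered the spinal cord differs from that of CD4 cells in the periphery during experimental autoimmune encephalomyelitis (EAE), a mouse model of multiple sclerosis. At EAE onset, CD44+CD4 effector cells were sorted by FACS from spinal cord (CNS, 2 libraries) and from draining lymph nodes that had been pooled (dLN, 2 libraries). The mice were wild type in both groups, C57BL/6 by the sample labels and C57BL/6J by the methods of the study, and had been immunized with a peptide of myelin oligodendrocyte glycoprotein (MOG) in complete Freund's adjuvant, followed by pertussis toxin. The methods of the study state that the sorted cells of both tissues were stimulated with PMA and ionomycin, whereas the sample labels name no stimulation. The age and number of the mice are not given in the sources used here. Nothing says that the libraries came from separate mice or cultures, so p-values measure the spread between these samples, which may be technical. With 2 libraries a group, the smallest two-sided p of an exact permutation test is 0.333.

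The libraries held an estimated 20.75 M fragments in CNS replicate 1, 21.5 M in CNS replicate 2, 18.6 M in dLN replicate 1 and 21.9 M in dLN replicate 2, from the steps between low FPKM values. Estimated fragment numbers below rest on these depths, and their 95% intervals cover counting error only. A listed 0 allows up to 3 fragments. None of 15 genes used by every cell was listed at 0 in any library. The header above the value columns of the CNS table holds both library names in a single cell, and replicate numbers were given to the columns in the sequence of that cell. If that order were reversed, the values given for CNS replicate 1 and CNS replicate 2 would change places. Sex-linked transcripts split by tissue, with Xist at 0 and 0.0026 FPKM in CNS and 26.6 and 22.3 FPKM in dLN. Y-linked Ddx3y was at 12.7 and 11.2 FPKM in CNS, and Ddx3y, Eif2s3y, Kdm5d and Uty were listed at 0 in both dLN libraries. Sex, tissue and the table that held the values therefore cannot be told apart. The T cell receptor chain gene Cd3g was at 761 and 674 FPKM in CNS and 112 and 88.4 FPKM in dLN. Of a list of 15 T cell genes, Cd3g rose most in CNS. In that list, both CNS libraries lay above both dLN libraries in 9 genes, where 29.4% of all symbols did. They lay below in 4, where 23.4% of all symbols did.

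Inflammation of the spinal cord in EAE brings together resident microglia, blood-borne monocytes and neutrophils, damaged oligodendrocytes, reactive astrocytes and neurons. Myeloid cells present antigen to the arriving CD4 cells, clear myelin debris through complement and Fc receptors, and secrete cytokines such as IL-1β. Many of the marker genes are abundant in their own cell type, and some are also used by T cells, among them Cst3, Cnp, Fn1, Tubb3, Fcer1g and the golli transcripts of Mbp. In bulk RNA, fewer cells of a type and less RNA per cell cannot be told apart.

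Promoters of 4 genes are shown because these genes had the largest differences between the CNS libraries among the 47. The sequences are from RefSeq (GRCm38.p6), cover 300 bases around the annotated gene start, most of them before it, and are written 5′ to 3′ on the strand of the gene. S100a8 lies on the plus strand (chr3:90668821-90669120), and S100a9 (chr3:90695672-90695971), Il1b (chr2:129371090-129371389) and Chil3 (chr3:106167515-106167814) lie on the minus strand. Capitals mark matches to GAGGAA, a core bound by the myeloid factor PU.1, or to TTGCNNAA, a core bound by C/EBP factors, searched on both strands. Matches of these motifs cannot overlap each other.
S100a8: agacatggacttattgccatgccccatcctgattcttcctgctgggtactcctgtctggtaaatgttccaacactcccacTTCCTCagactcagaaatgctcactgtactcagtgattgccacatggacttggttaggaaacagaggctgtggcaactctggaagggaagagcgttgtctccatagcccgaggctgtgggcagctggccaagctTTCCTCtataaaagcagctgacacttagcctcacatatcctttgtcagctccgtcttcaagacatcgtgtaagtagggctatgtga
S100a9: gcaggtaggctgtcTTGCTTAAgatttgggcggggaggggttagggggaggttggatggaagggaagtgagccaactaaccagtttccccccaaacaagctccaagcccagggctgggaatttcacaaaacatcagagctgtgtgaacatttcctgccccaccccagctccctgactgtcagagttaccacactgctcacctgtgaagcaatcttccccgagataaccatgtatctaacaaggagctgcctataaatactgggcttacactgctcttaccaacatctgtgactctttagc
Il1b: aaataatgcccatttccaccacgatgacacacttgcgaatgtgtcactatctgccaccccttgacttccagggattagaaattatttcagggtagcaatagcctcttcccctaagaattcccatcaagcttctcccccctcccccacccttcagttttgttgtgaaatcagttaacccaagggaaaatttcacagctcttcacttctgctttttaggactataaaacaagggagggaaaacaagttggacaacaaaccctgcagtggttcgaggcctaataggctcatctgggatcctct
Chil3: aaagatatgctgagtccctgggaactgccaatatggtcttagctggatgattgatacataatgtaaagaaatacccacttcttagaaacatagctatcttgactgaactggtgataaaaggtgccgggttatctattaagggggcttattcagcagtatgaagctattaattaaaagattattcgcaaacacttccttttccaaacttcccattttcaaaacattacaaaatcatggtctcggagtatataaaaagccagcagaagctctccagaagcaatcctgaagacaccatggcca
S100a8, a calcium-binding alarmin of neutrophils and monocytes, had 2 matches to GAGGAA on the other strand. S100a9, its binding partner, had 1 match to TTGCNNAA on its own strand. These letters were not in the windows of Il1b and Chil3. Of the 47 genes, 34 matched a promoter in the RefSeq table. GAGGAA was in 19 of the 34 (55.9%) and in 28.3% of all 32851 promoters of that length. TTGCNNAA was in 11 of the 34 (32.4%) and in 10.8% of all promoters. Among the 10 neutrophil promoters, 5 held GAGGAA and 6 held TTGCNNAA, and among the 14 of microglia and macrophages, 10 and 4 did. Of the 5 oligodendrocyte promoters 3 and 0 did, of the 3 of astrocytes 1 and 1, and of the 2 of neurons 0 and 0. A match is a run of letters, and binding was not measured.

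Of the 47 genes, 20 reached 1 FPKM in CNS replicate 1, 35 in CNS replicate 2 and 5 in each dLN library. In dLN, 28 of the 47 were listed at 0 in both libraries. Summed over all 47, the level was 294 FPKM in CNS replicate 1 and 1156 FPKM in CNS replicate 2, or 0.0511% and 0.191% of all FPKM in these libraries. In dLN the sums were 123 and 113 FPKM, or 0.0238% and 0.0221% of all FPKM. The summed level was thus higher in CNS replicate 2 than in the other 3 libraries. Between dLN replicates the log2 difference stayed between -0.68 and 0.13 in each of the 47 genes.

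**Figure D1:**
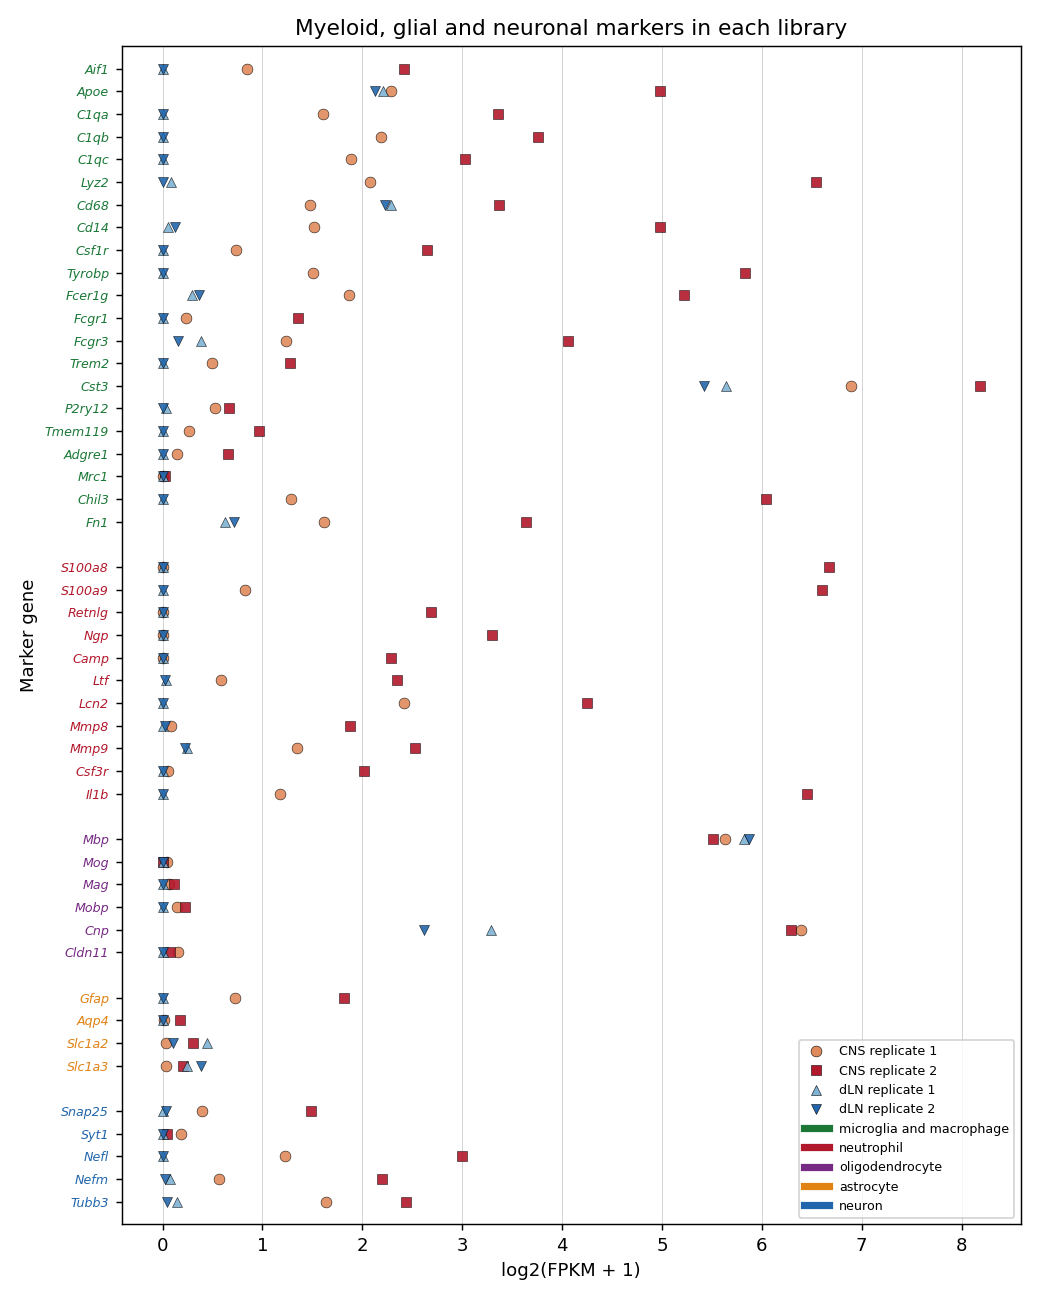
Level of each of the 47 marker genes in each library, as log2(FPKM + 1), with gene names coloured by cell type; circles and squares are CNS replicates 1 and 2, and triangles are dLN replicates. Most myeloid and neutrophil genes lie near 0 in dLN and furthest right in CNS replicate 2, while Mbp and Cnp have close values in the CNS libraries.

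CNS was compared with dLN by limma on log2(FPKM + 1), with 2 libraries per tissue and Benjamini-Hochberg adjustment over all 10634 symbols whose mean reached 1 FPKM in CNS or in dLN. A log2 ratio is the CNS mean minus the dLN mean on this scale, and is too small for genes of low level. Of the 47 genes, 33 passed this minimum, and 14 had an adjusted p under 0.05 with a higher level in CNS, where 37.8% of all tested genes did. In this fit the share of the tested markers was 42.4%, close to that of all genes, so the count is not a result about the markers. The share changed with the setting, and was 72.7% with a pseudocount of 0.1, where 38.2% of all tested genes were called higher. Only Mbp was called lower, where 37.2% of all tested genes were, and 18 tested markers were not called. A marker could pass the minimum through its CNS level alone, which fixes the direction of most of these calls. Both CNS libraries lay above both dLN libraries in 37 of the 47 genes, where 29.4% of all symbols did. They lay below them in 2, where 23.4% of all symbols did. The symbols behind these shares include 7208 listed at 0 in every library. Among the 10634 tested genes, 4861 lay above and 4645 below. The markers were chosen as genes of cells found in the CNS, so this direction is no sign of stability. Their median log2 ratio was 1.44, where that of all tested genes was 0.05. It was 3.56 with 35 genes that had at most 3 fragments in each dLN library, and more in a CNS library, set to the bound that 3 fragments per library allow. For these 35 genes the value was the log2 of the mean CNS FPKM over that bound, with no pseudocount, while the other genes kept the scale above. The medians of 1.44 and 3.56 are therefore not on the same scale. The calls depended on single libraries, since 32 markers were called higher without CNS replicate 1 (35.2% of all tested genes), 24 without CNS replicate 2 (34.2%), 6 without dLN replicate 1 (34.0%) and 5 without dLN replicate 2 (30.3%). With a single CNS library left, the spread in the fit came from the dLN libraries alone, and the remaining CNS library was taken to vary as they do. C1qb, C1qc, Lcn2, Cnp and Tubb3 were called without each of the 4 libraries in turn, and the other 10 called markers lost the call without at least 1 library. Lyz2, Fcer1g and Fn1 also lost it with no minimum level and without the trend of the fit, and Aif1, Gfap and Nefl with no minimum level. With no minimum level, all 47 markers were tested and 10 were called higher (25.9% of all tested genes). These include markers that were below the minimum of the main fit. In contrast, Tyrobp, Cd14, Csf1r, Chil3, Fcgr3, S100a9, Il1b, Ltf, Nefm and Snap25 missed the threshold in the main fit and passed it with a pseudocount of 0.1.

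Of the 21 microglia and macrophage genes, 15 were tested, of which 8 were called higher in CNS, where 37.8% of all tested genes were, and 7 were not called. Their summed level was 149 and 680 FPKM in CNS and 57.6 and 50.1 FPKM in dLN. Cst3, which encodes the secreted protease inhibitor cystatin C, was the most abundant of the 21 in each library. It was at 118 and 289 FPKM in CNS and at 48.9 and 41.9 FPKM in dLN. The tissues did not overlap, and Cst3 rose in CNS (log2 ratio 2.01, standard error 0.43, limma adjusted p = 0.00998). Without dLN replicate 2 the call was lost (limma adjusted p = 0.0565, in a range of 0.00506 to 0.0565 over the alternatives). Without Cst3 the other 20 genes summed to 31.2 and 390 FPKM in CNS and to 8.68 and 8.17 FPKM in dLN, so Cst3 made up most of the level in dLN and in CNS replicate 1.

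Complement C1q opens the classical complement pathway, and its 3 chain genes are made in the CNS mainly by microglia. C1qa was at 2.05 and 9.24 FPKM in CNS, C1qb at 3.57 and 12.5 FPKM and C1qc at 2.70 and 7.13 FPKM. None had a value above 0 in dLN replicate 1 or 2, and all 3 were called higher in CNS. The log2 ratio was 2.48 for C1qa (standard error 0.58, limma adjusted p = 0.0134), 2.97 for C1qb (standard error 0.52, limma adjusted p = 0.00492) and 2.45 for C1qc (standard error 0.39, limma adjusted p = 0.00347). CNS replicate 2 was above CNS replicate 1 by a ratio of 4.50 (95% interval 3.18 to 6.52), 3.52 (2.67 to 4.68) and 2.64 (1.90 to 3.73), beyond counting error in each. Aif1, which encodes the microglial protein IBA1, was at 0.791 and 4.33 FPKM in CNS and listed at 0 in dLN (log2 ratio 1.63, standard error 0.53, limma adjusted p = 0.0396).

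Lyz2, Tyrobp, Fcer1g, Cd14, Fcgr3 and Chil3 had wider gaps between the CNS libraries than the C1q genes and Aif1. No fixed list or test lies behind this grouping. Ratios between the CNS libraries were narrower for Cst3 (2.46), Cd68 (5.23), Fn1 (5.55), Csf1r (7.87) and Apoe (7.91). Lyz2, which encodes lysozyme, had levels of 3.22 and 92.1 FPKM in CNS replicates 1 and 2. In dLN it was at 0.0621 FPKM in replicate 1 and listed at 0 in replicate 2 (log2 ratio 4.27, standard error 1.45, limma adjusted p = 0.0452). Tyrobp encodes the signalling adaptor DAP12 of myeloid receptors. Its levels were 1.84 and 55.9 FPKM in CNS, with a listed 0 in both dLN libraries. The log2 ratio of Tyrobp, 3.67 with a standard error of 1.40, missed the threshold (limma adjusted p = 0.0639), and passed with a pseudocount of 0.1 (log2 ratio 6.70, limma adjusted p = 0.0128) and with replicate as a block (limma adjusted p = 0.0411). Fcer1g, the common gamma chain of Fc receptors, was at 2.63 and 36.2 FPKM in CNS and at 0.230 and 0.287 FPKM in dLN, and was called (log2 ratio 3.21, limma adjusted p = 0.0454). Cd14, a coreceptor for bacterial lipopolysaccharide, was at 1.87 and 30.5 FPKM in CNS and at 0.0366 and 0.0920 FPKM in dLN. Fcgr3, a low-affinity receptor for IgG, was at 1.35 and 15.6 FPKM in CNS and at 0.309 and 0.116 FPKM in dLN. Neither passed the threshold, with limma adjusted p = 0.0520 for Cd14 and 0.0672 for Fcgr3. Over the alternatives the limma adjusted p of Cd14 ranged from 0.00453 to 0.153, and it passed with either scaling of the libraries, with a minimum mean of 5 FPKM, with a pseudocount of 0.1, with replicate as a block and without either CNS library. Chil3, a chitinase-like protein of monocytes and alternatively activated macrophages, was at 1.45 and 65.1 FPKM in CNS and listed at 0 in dLN. From an estimated 42 and 1887 fragments, the ratio between the CNS libraries was 45.0 (95% interval 33.2 to 62.6), and the log2 ratio of CNS over dLN was 3.67 (standard error 1.54, limma adjusted p = 0.0826), or 6.65 with a pseudocount of 0.1 (limma adjusted p = 0.0190). For these genes the distance between the CNS libraries was the main part of the error.

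Csf1r, the receptor for CSF-1 on which microglia and macrophages depend, was at 0.668 and 5.26 FPKM in CNS and listed at 0 in dLN (limma adjusted p = 0.0600). Fn1, which encodes fibronectin, was at 2.06 and 11.5 FPKM in CNS and at 0.545 and 0.641 FPKM in dLN, and was called (log2 ratio 1.96, standard error 0.66, limma adjusted p = 0.0454). With the highest transcript of each symbol its log2 ratio was 1.21 and the call was lost (limma adjusted p = 0.101). Apoe and Cd68 differed from the other genes in that dLN levels lay close to or above that of CNS replicate 1. Apoe, the lipid carrier of glia and macrophages, was at 3.87 and 30.6 FPKM in CNS and at 3.60 and 3.35 FPKM in dLN (log2 ratio 1.47, standard error 0.88, limma adjusted p = 0.184). Cd68, a lysosomal glycoprotein, was at 1.79 and 9.35 FPKM in CNS and at 3.87 and 3.68 FPKM in dLN. The tissues overlapped for Cd68, with the CNS libraries on either side of dLN (log2 ratio 0.17, standard error 0.62, limma adjusted p = 0.811). Without CNS replicate 2 its log2 ratio was -0.78 (limma adjusted p = 0.0150, in a range of 0.00960 to 0.987 over the alternatives), and without CNS replicate 1 it was 1.12.

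Of the 21 microglia and macrophage genes, 6 were low in all 4 libraries. P2ry12, the ADP receptor of resting microglia, was at 0.437 and 0.580 FPKM in CNS and at 0.0251 and 0 FPKM in dLN. Its ratio between the CNS libraries was 1.33 (95% interval 0.717 to 2.50), a difference not detectable at this depth. Tmem119, a surface protein of microglia, was at 0.198 and 0.954 FPKM in CNS, a ratio of 4.81 (95% interval 2.21 to 11.9), and was listed at 0 in dLN. Trem2, a lipid-sensing receptor that signals through DAP12, was at 0.407 and 1.42 FPKM in CNS. Fcgr1, the high-affinity IgG receptor, was at 0.177 and 1.56 FPKM, and Adgre1, which encodes the macrophage antigen F4/80, at 0.108 and 0.574 FPKM. All 3 were listed at 0 in dLN. Mrc1, the mannose receptor of border macrophages, had a value in CNS replicate 2 alone, 0.0180 FPKM or an estimated 2 fragments. These 6 genes fell below the minimum of 1 FPKM and were not tested. The P2ry12 span overlaps that of Med12l, which was at 0.289 and 0.238 FPKM in CNS. The strand of counting is not stated and overlap of exons was not checked, so whether reads of these genes could be mixed is not known. The spans of Csf1r, Mrc1, Il1b, Syt1 and Nefm also overlap other genes, each of them at 0.0383 FPKM or less in all 4 libraries.

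Neutrophil genes had the widest distance between the CNS libraries of the 5 cell types, with a summed level of 8.53 FPKM in CNS replicate 1 and 334 FPKM in CNS replicate 2, a ratio of 39.2. In dLN the 11 genes summed to 0.202 and 0.204 FPKM. All 11 were tested, 2 were called higher in CNS, where 37.8% of all tested genes were, and 9 were not called. S100a8 was the most abundant in CNS replicate 2, at 101 FPKM from an estimated 438 fragments (95% interval 398 to 481), and was listed at 0 in the other 3 libraries. S100a9 was at 0.767 and 96.0 FPKM in CNS, from an estimated 6 and 688 fragments, and listed at 0 in dLN. The ratio between the CNS libraries was 125 for S100a9 (95% interval 57.3 to 343). Neither gene passed the test, with log2 ratios of 3.34 (standard error 2.16, limma adjusted p = 0.214) for S100a8 and 3.71 (standard error 1.87, limma adjusted p = 0.129) for S100a9. With a pseudocount of 0.1, S100a9 passed (log2 ratio 6.51, limma adjusted p = 0.0421). Il1b, which encodes the cytokine IL-1β of monocytes, macrophages and neutrophils, was at 1.26 and 86.4 FPKM in CNS and listed at 0 in dLN. Its ratio between the CNS libraries was 68.6 (95% interval 48.2 to 101), and its log2 ratio of CNS over dLN was 3.81 (standard error 1.71, limma adjusted p = 0.0973), or 6.76 with a pseudocount of 0.1 (limma adjusted p = 0.0251).

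Granule genes and other neutrophil genes separated into those read in CNS replicate 2 alone and those read in both CNS libraries. Ngp (8.82 FPKM) and Camp (3.87 FPKM), proteins of secondary granules, and Retnlg (5.46 FPKM), a resistin-like protein, had these levels in CNS replicate 2 and were listed at 0 in the other 3 libraries. Their limma adjusted p was 0.216, 0.221 and 0.219. Csf3r, the receptor for G-CSF, was at 0.0389 and 3.03 FPKM in CNS and the collagenase Mmp8 at 0.0623 and 2.67 FPKM, each from an estimated 3 fragments in CNS replicate 1. Ltf, which encodes lactoferrin, was at 0.498 and 4.09 FPKM in CNS and at 0.0211 and 0.0177 FPKM in dLN. Lcn2, an iron-siderophore binding protein of granulocytes that reactive astrocytes and myeloid cells also make, was at 4.35 and 18.1 FPKM in CNS and listed at 0 in dLN. Lcn2 rose in CNS (log2 ratio 3.34, standard error 0.60, limma adjusted p = 0.00551), with a ratio of 4.15 between the CNS libraries (95% interval 3.14 to 5.56). The gelatinase Mmp9 was at 1.55 and 4.76 FPKM in CNS and at 0.181 and 0.167 FPKM in dLN, and rose in CNS (log2 ratio 1.71, standard error 0.40, limma adjusted p = 0.0139). The ratio between the CNS libraries was 3.07 for Mmp9 (95% interval 2.44 to 3.90), and for the other neutrophil genes with a value in both, apart from Lcn2, it was 8.20 or more.

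**Figure D2:**
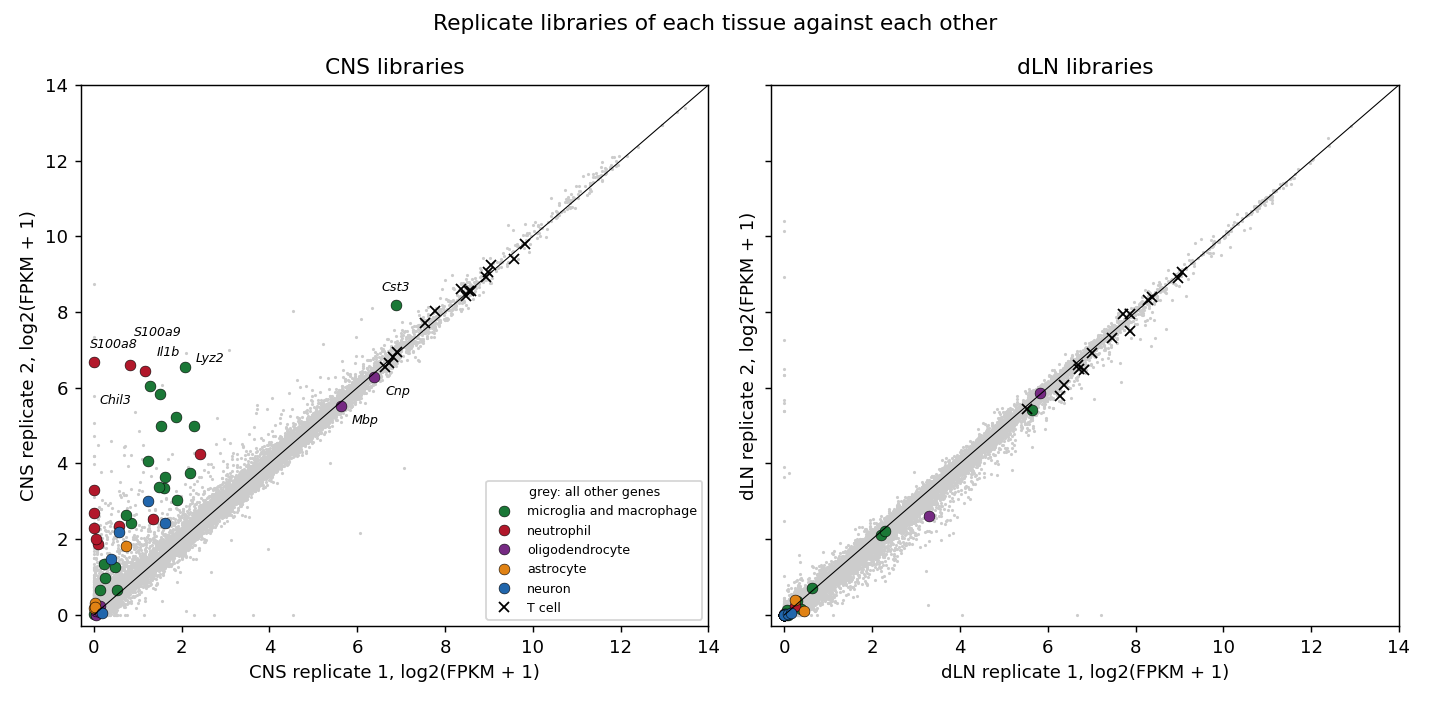
Each symbol's level in replicate 1 (horizontal) against replicate 2 (vertical), as log2(FPKM + 1), for CNS on the left and dLN on the right; coloured points are the 47 markers by cell type, crosses 15 T cell genes, grey points all other symbols, and the line marks equal levels. In CNS, 42 of the 47 markers lie above the line, with S100a8 the furthest of them from it, while T cell genes, Mbp and Cnp lie along it.

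Oligodendrocyte genes behaved otherwise, with close values in the CNS libraries. They summed to 132 and 122 FPKM in CNS and to 64.3 and 62.8 FPKM in dLN, nearly all from Mbp and Cnp. Without these, the other 4 genes summed to 0.290 and 0.310 FPKM in CNS and were listed at 0 in dLN. Cnp encodes the phosphodiesterase CNPase of myelin. It was at 82.8 and 77.5 FPKM in CNS and at 8.80 and 5.12 FPKM in dLN, and had the smallest adjusted p of the 47 genes. The CNS mean was 80.2 ± 3.72 FPKM (SD, n = 2), that of dLN 6.96 ± 2.60 FPKM (SD, n = 2), and Cnp rose in CNS (log2 ratio 3.39, standard error 0.24, limma adjusted p = 0.000259). Mbp, myelin basic protein, was at 48.6 and 44.5 FPKM in CNS and at 55.5 and 57.7 FPKM in dLN. The higher CNS library lay below the lower dLN library, and Mbp fell by 0.28 on the log2 scale (standard error 0.09, limma adjusted p = 0.0361). Over the alternatives its adjusted p in limma ranged from 0.00929 to 0.22, and the call was lost with the same upper quartile in each library, with replicate as a block, with eBayes run without trend, and without CNS replicate 2 or either dLN library. The RefSeq transcript of 4820 bases, which starts at the golli promoter shared with cells of the immune system, made up 93.7% to 98.5% of the Mbp level in each library. Apart from Mbp and Cnp, the oligodendrocyte genes among the 47 were near 0. The target of the immunization, Mog, was at 0.0307 FPKM in CNS replicate 1, an estimated 1 fragment, and listed at 0 in the other 3 libraries. Mag, an adhesion protein of the inner myelin layer, was at 0.0420 and 0.0825 FPKM in CNS, Mobp, a basic protein of compact myelin, at 0.106 and 0.172 FPKM, and Cldn11, a tight junction protein of the sheath, at 0.111 and 0.0549 FPKM. These 3 were listed at 0 in dLN and came from an estimated 2 to 8 fragments a library in CNS.

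Astrocyte genes were low in all 4 libraries, with sums of 0.715 and 3.03 FPKM in CNS and 0.550 and 0.378 FPKM in dLN. Gfap, the intermediate filament of reactive astrocytes, was at 0.655 and 2.51 FPKM in CNS and listed at 0 in dLN, and was the astrocyte gene that passed the minimum. It rose in CNS (log2 ratio 1.27, standard error 0.38, limma adjusted p = 0.0312), with a ratio of 3.83 between the CNS libraries (95% interval 2.63 to 5.73). Aqp4, the water channel of astrocyte endfeet, was at 0.00970 and 0.132 FPKM in CNS and listed at 0 in dLN. The glutamate transporters were read in both tissues, Slc1a2 at 0.0269 and 0.233 FPKM in CNS and 0.362 and 0.0739 FPKM in dLN. Slc1a3 was at 0.0236 and 0.149 FPKM in CNS and at 0.188 and 0.304 FPKM in dLN, and lay lower in both CNS libraries than in either dLN library. These 3 genes were below the minimum and were not tested.

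Neuron genes summed to 4.37 and 16.8 FPKM in CNS and to 0.161 and 0.0689 FPKM in dLN, and both CNS libraries lay above both dLN libraries in all 5, where 29.4% of all symbols did. Nefl, the light neurofilament subunit, was at 1.34 and 7.01 FPKM in CNS and listed at 0 in dLN (log2 ratio 2.12, standard error 0.59, limma adjusted p = 0.0243). Tubb3, a tubulin of neurons that other cells can also make, was at 2.10 and 4.40 FPKM in CNS and at 0.105 and 0.0294 FPKM in dLN (log2 ratio 1.94, standard error 0.29, limma adjusted p = 0.00295). These 2 of the 4 tested were called higher in CNS, where 37.8% of all tested genes were. Nefm, the middle neurofilament subunit, was at 0.481 and 3.60 FPKM in CNS and at 0.0532 and 0.0149 FPKM in dLN (limma adjusted p = 0.0779). Snap25, a fusion protein of synaptic vesicles, was at 0.316 and 1.80 FPKM in CNS and at 0.00279 and 0.0246 FPKM in dLN (limma adjusted p = 0.0822). Syt1, the calcium sensor of synaptic vesicles, was at 0.135 and 0.0304 FPKM in CNS and listed at 0 in dLN. It was the only neuron gene with a lower level in CNS replicate 2 than in CNS replicate 1, from an estimated 13 and 3 fragments.

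The CNS libraries were then compared with each other, gene by gene. With 1 library on each side there is no replicate check and no p-value, and the differences describe these libraries. CNS replicate 2 was above CNS replicate 1 in 42 of the 47 genes, where it was above in 39.9% of all symbols. Of the 23990 symbols, 7208 were listed at 0 in every library and could not be above. Among the 10634 tested genes, CNS replicate 2 was above in 5771. The log2 difference was at least 2 in 14 of the 47, where 0.371% of all symbols had such a difference, and at least 1 in 31 of the 47, where 1.28% of all symbols did. Of the 14 genes, 8 were microglia and macrophage genes and 6 were neutrophil genes. A log2 difference of -1 or less was found in 0 of the 47, where 0.0584% of all symbols had one. The median difference of the 47 genes was 1.57, where that of all tested genes was 0.02. By cell type it was 2.29 for neutrophils, 1.75 for microglia and macrophages, 1.09 for neurons, 0.22 for astrocytes and -0.06 for oligodendrocytes. Among 23990 symbols ordered by this difference, S100a8 ranked 3, S100a9 ranked 5, Il1b ranked 6, Chil3 ranked 9, Lyz2 ranked 12 and Tyrobp ranked 15, and 15 of the 47 genes were among the first 100. That such markers stand higher in CNS replicate 2 was known when the genes were chosen, so the counts describe the libraries and are not independent support.

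**Figure D3:**
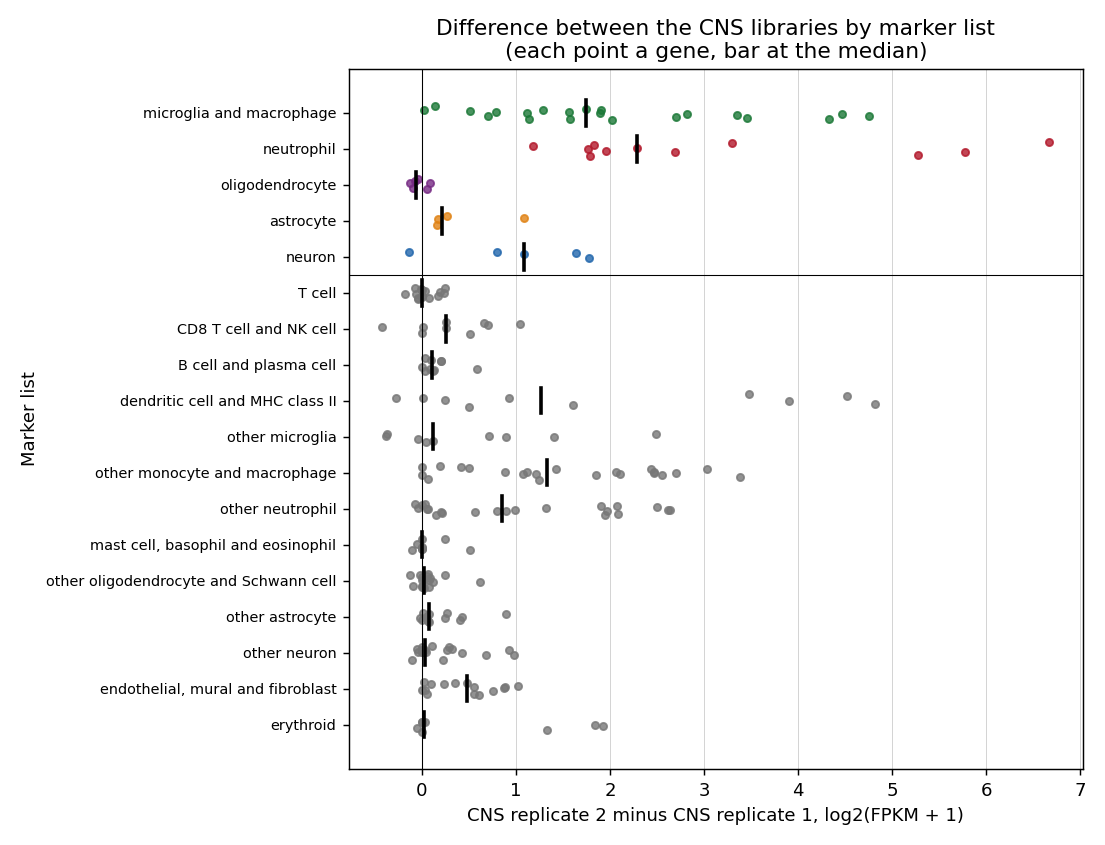
Difference between the CNS libraries for each gene, as CNS replicate 2 minus CNS replicate 1 on log2(FPKM + 1), by marker list; points are genes (spread vertically for legibility) and bars are medians, with the 47 markers above the line and further lists below it. The median was 2.29 for neutrophil genes and 1.75 for microglia and macrophage genes, and 0.00 for T cell genes.

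T cell genes had close values in the CNS libraries. The 15 genes of the T cell list summed to 5450 and 5553 FPKM in CNS and to 3183 and 3052 FPKM in dLN, and their differences between the CNS libraries ran from -0.18 to 0.25 on the log2 scale. In CNS the 47 markers together summed to 294 and 1156 FPKM, below this list in either library. The lists differ in the number and level of their genes, so these sums do not give a share of cells. All 15 were tested by limma, and 8 were called higher in CNS and 4 lower, where 37.8% and 37.2% of all tested genes were. Cd4 and Cd44, named here for the sort and chosen after their values were seen, were at 502 and 531 FPKM (Cd4) and at 112 and 112 FPKM (Cd44) in CNS. In dLN they were at 82.0 and 66.7 FPKM (Cd4) and at 176 and 157 FPKM (Cd44).

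Further lists of myeloid genes differed in how far apart the CNS libraries lay. Genes of dendritic cells and MHC class II summed to 42.7 and 581 FPKM in CNS and to 63.7 and 58.2 FPKM in dLN, led by Cd74 in each library. H2-Aa, a chain of the antigen-presenting molecule I-A, was at 3.28 and 120 FPKM in CNS and at 0.857 and 0.614 FPKM in dLN. The sums of 22 other monocyte and macrophage genes were 320 and 542 FPKM in CNS and 82.8 and 64.5 FPKM in dLN. Most of this was the lectin gene Lgals3, at 154 and 176 FPKM in CNS, and the cathepsin gene Ctss, at 129 and 182 FPKM. T cells also express both of these genes, so the sum is not specific to myeloid cells. The pore-forming protein gene Mpeg1, at 1.17 and 21.6 FPKM, had the largest log2 difference of the list between the CNS libraries (3.39), while the macrophage scavenger receptor genes Cd163 and Marco were listed at 0 in each library. The 22 other neutrophil genes had sums of 72.4 and 118 FPKM in CNS and 6.65 and 5.50 FPKM in dLN. Pglyrp1, a peptidoglycan recognition protein, was the most abundant of them and had close values in CNS, at 62.3 and 69.2 FPKM. The elastase gene Elane was listed at 0 in each library. CNS replicate 2 was above CNS replicate 1 in 19 of the 22, where it was above in 39.9% of all symbols. The log2 difference was at least 1 in 9, where 1.28% of all symbols had one, and the median was 0.85. It was largest for Clec4e (2.64), at 0.121 and 5.99 FPKM in CNS. For 9 other microglia genes the log2 difference between the CNS libraries ran from -0.38 to 2.49, with a median of 0.12, and both CNS libraries lay above both dLN libraries in 8 of the 9, where 29.4% of all symbols did. The part of such cells in the differences between CNS and dLN was not tested.

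Other glial lists had close sums in the CNS libraries. The 17 other oligodendrocyte and Schwann cell genes summed to 35.5 and 34.0 FPKM in CNS and to 5.95 and 2.99 FPKM in dLN. Most of this was Ermn, a cytoskeletal protein of myelinating cells, at 31.2 and 28.6 FPKM in CNS, while Olig2, Opalin and Aspa were listed at 0 in each library. The 13 other astrocyte genes summed to 37.3 and 42.8 FPKM in CNS and to 21.7 and 23.0 FPKM in dLN, mostly from Glul, the glutamine synthetase that many cells use, and Gjb6, a gap junction gene, was listed at 0 in each library. The 20 other neuron genes summed to 8.30 and 15.5 FPKM in CNS and to 18.1 and 20.8 FPKM in dLN. The sum in CNS replicate 2 was 1.86 times that in CNS replicate 1. Syp, a protein of synaptic vesicles and the most abundant of them in dLN, was at 0.533 and 0.846 FPKM in CNS and 8.20 and 9.66 FPKM in dLN.

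**Figure D4:**
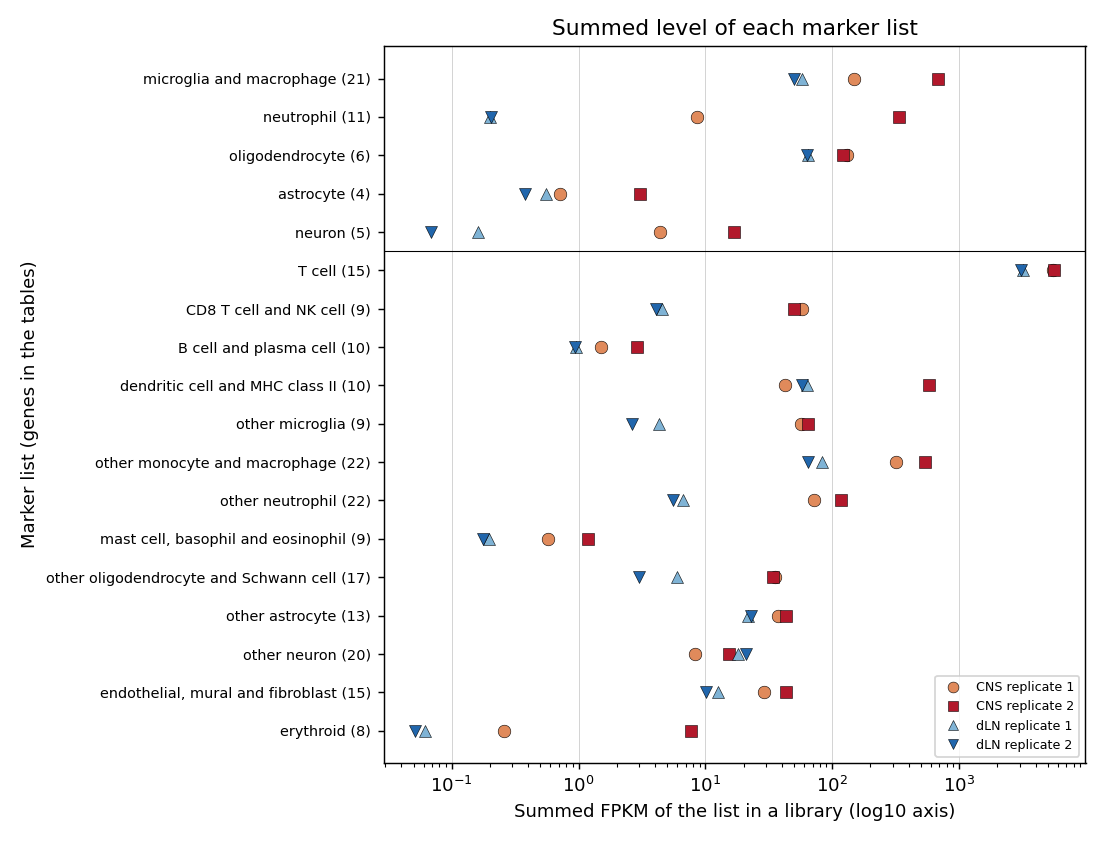
Summed FPKM of each marker list in each library on a log10 axis, with the number of genes in parentheses; lists above the line hold the 47 markers and those below it are further lists. The neutrophil list is at 8.53 and 334 FPKM in CNS replicates 1 and 2, and the T cell list is at 5450 and 5553 FPKM.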

How the data were processed

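The authors made TruSeq RNA libraries from sorted cells and deposited a table of FPKM values for each tissue, computed from trimmed and mapped reads for 33819 RefSeq transcripts (mouse build mm10). The aligner and the program that computed FPKM are not given in the sources used here. FPKM was summed by symbol, 23990 in all, leaving out 565 transcripts that have none (0.142% to 0.446% of the FPKM in each library). The tables were joined by transcript. The names of the CNS libraries share a header cell, and its sequence gave the replicate of each column.

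Tissue was the only term of a limma fit (version 3.58.1, lmFit and eBayes with trend, R 4.3.3) to log2(FPKM + 1) of symbols whose mean reached 1 FPKM in CNS or dLN. Other steps used Python 3.11.15 with scipy 1.17.1, numpy 2.4.6, matplotlib 3.10.9 and pandas 2.3.3. Depth was estimated from steps between low FPKM values over transcript length less 150 to 200 bases. With these, 89.8% to 93.7% of low values lay within 0.05 of a whole fragment number. Ratios between libraries have exact Clopper-Pearson intervals, and fragment numbers exact Poisson intervals. On simulated data the depth was recovered within 0.5%. With 200 of 10634 genes changed 4-fold in such data, limma called all 200, and 38 unchanged genes were called beside them. How many of the marker calls are false was not tested.

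The members and the 13 further lists (179 of 180 genes in the tables, Ly6g not analysed here) were chosen with earlier results of these data known. Genes named by rule were all 47 members, up to 4 genes of each further list by mean FPKM plus defining genes listed at 0, the 10 genes outside the lists with the largest difference between the CNS libraries in each direction, overlapping genes and sex-linked genes. Some genes of the further lists were named otherwise, with their values known. Cd4 and Cd44 were named for the sort, and Mpeg1 and Clec4e for their difference between the CNS libraries. Alternatives covered the pseudocount, the minimum level, the scaling, the highest transcript, a replicate block, the trend, a minimum log2 ratio and leaving out each library.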

Additional observations from a re-analysis of the deposited data

How the results depend on the processing

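The count of 14 markers called higher by limma was 24 with a pseudocount of 0.1 (38.2% of all tested genes) and 9 with a minimum mean of 5 FPKM (38.3%), which left 18 markers tested. It was 10 with no minimum (25.9%), 11 without the trend (37.8%) and 5 to 32 with a library left out. The count of 1 marker called lower was 0 with the same upper quartile in each library, without the trend and where the size of the log2 ratio also had to reach 1, and 0 to 1 with a library left out, where Cd68 took the place of Mbp without CNS replicate 2 (log2 ratio reversed to -0.78, against 1.12 without CNS replicate 1). Over all genes, 7968 were called, and 4168 where the size of the log2 ratio also had to reach 1. The same FPKM sum in each library moved the median log2 ratio of all genes from 0.05 to -0.13, and the same upper quartile moved it to 0.16. The mean sum of neutrophil genes in dLN went from 0.203 FPKM to 0.218 with the same sum and 0.194 with the same upper quartile. That of oligodendrocyte genes went from 127 to 119 FPKM in CNS with the same sum, and in dLN from 63.6 to 68.3 and 60.7 FPKM. The median difference between the CNS libraries went from 1.57 to 2.19 with a pseudocount of 0.1. The cause of these changes was not tested. Over single markers, 220 of 249 comparisons that used all 4 libraries kept their direction and side of the threshold, 16 passed it in place of missing it and 13 missed it in place of passing. With a library left out, 83 of 132 kept both, 28 passed in addition, 20 no longer passed and 1 reversed. Camp, Ngp, Retnlg and S100a8 were listed at 0 in every library left once CNS replicate 2 was out.

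The replicate numbers are shared by both tissues, but across 10634 genes the differences between replicates of CNS and of dLN had a correlation of 0.0933 over 2 pairs, and no source describes a pairing. With the replicate number as a block, 17 markers were called higher, where 37.2% of all tested genes were, and 0 lower. The block changed 4 marker calls, adding Cd14, Csf1r and Tyrobp and dropping Mbp.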

Other observations

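Genes listed for other cell types also had values in these libraries, and whether such cells were present was not tested. Endothelial, mural and fibroblast genes summed to 29.1 and 43.2 FPKM in CNS and to 12.6 and 10.1 FPKM in dLN. Vwf, the clotting factor carrier of endothelium, was at 3.54 and 8.23 FPKM in CNS and listed at 0 in dLN. Genes of CD8 T cells and NK cells summed to 57.7 and 49.6 FPKM in CNS and to 4.56 and 4.11 FPKM in dLN. The most abundant was the lectin receptor gene Klrd1 in CNS (48.8 and 36.2 FPKM) and the CD8 chain gene Cd8b1 in dLN (3.38 and 3.38 FPKM), and Klra1 was listed at 0 in each library. Klrd1 alone made up most of the sum in both CNS libraries, and Cd8b1 most of it in both dLN libraries. B cell and plasma cell genes summed to 1.5 and 2.89 FPKM in CNS and to 0.957 and 0.931 FPKM in dLN, with the B cell factor Pax5 listed at 0 in each library. Erythroid genes summed to 0.257 and 7.66 FPKM in CNS and to 0.0617 and 0.0517 FPKM in dLN, with Hbb-b1 at 0.145 and 3.11 FPKM in CNS. Genes of mast cells, basophils and eosinophils summed to 0.579 and 1.18 FPKM in CNS and to 0.198 and 0.177 FPKM in dLN, and Mcpt4, Mcpt8, Epx and Fcer1a were listed at 0 in each library.

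Outside all lists, Mir682, Mir684-2, Snora65, Mir6236, Snord22, Cxcl2, Eif3j1, Niacr1, Mir8112 and Mir6376 had the largest differences with a higher level in CNS replicate 2. Cxcl2, a chemokine that attracts neutrophils, was at 0.923 and 39.8 FPKM in CNS and at 49.1 and 56.4 FPKM in dLN. Niacr1, the receptor for nicotinic acid on myeloid cells and fat cells, was at 0.319 and 23.1 FPKM in CNS and listed at 0 in dLN. Scarna8, Serpinb1a, Ctse, Atp6v0c-ps2, Snord15b, Gm4070, Calca, Tmem37 and Eif3j2 were among those with the largest differences in the other direction. Among them, the aspartic protease gene Ctse was at 133 and 13.7 FPKM in CNS and at 1.73 and 1.17 FPKM in dLN. Eif3j1 and Eif3j2 are near-identical copies between which reads could be split.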
